A study of Mus musculus with 10 samples.

Results

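The EGF family comprised 10 genes here, namely the 6 ligand genes *Areg*, *Ereg*, *Epgn*, *Btc*, *Hbegf* and *Tgfa* and the 4 receptor genes *Egfr*, *Erbb2*, *Erbb3* and *Erbb4*. They were picked by gene symbol from the 29268 genes of the deposited table, without use of their levels, and 7 of them were among the 16993 genes with enough reads for a test between the genotypes. The uterine transcriptome of 5 HSD17B1TG females (TG1 to TG5) was compared with that of 5 wild-type (WT) females (WT1 to WT5), with 1 RNA-seq library per mouse. Every mouse was 4 months old and had an FVB/N background. The HSD17B1TG mice were heterozygous for a human *HSD17B1* cDNA, which encodes an enzyme that turns estrone into estradiol and was driven in all tissues by the chicken beta actin promoter with a CMV enhancer. These females have no estrous cycle, whereas WT uteri were taken without regard to the cycle phase. The sampling of WT uteri at any phase is stated for the histology, and here it is assumed for the sequenced uteri, in which case genotype and cycle phase cannot be told apart.

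EGF-family ligands are made as precursors anchored in the cell membrane, and metalloproteases of the ADAM family cut them free. Ligand binding pairs the ERBB receptors with each other, which starts the MAP kinase and PI3 kinase cascades. EGFR and ERBB4 bind ligand and are active kinases, ERBB2 has no known ligand and serves as the preferred partner of the others, and ERBB3 binds neuregulins but has little kinase activity of its own. In the mouse uterus the family is best known from implantation, where *Areg* is induced in the epithelium by progesterone and *Hbegf* appears around the attaching blastocyst.

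The deposited FPKM (fragments scaled to gene length and to a size factor per library) allow levels of different genes to be set side by side. Libraries held 14817228 to 23271988 counts on genes, so that 3 counts, taken as the detection limit, corresponded to 0.129 to 0.202 counts scaled to the library total (CPM). This limit covers counting error only. The share of counts on mitochondrial genes was 5.74%, 6.87% and 7.57% in TG1, TG4 and TG5, 1.94% and 2.49% in TG2 and TG3, and 2.58% to 3.37% in WT, and its part in the results was not tested. All 8 uterine marker genes examined were detected in every mouse, among them the estrogen receptor gene *Esr1*, with means of 33.9 ± 4.83 FPKM in the transgenic and 34.9 ± 6.50 in the WT group (here and below ± is the SD over n = 5 mice). Of these 8, 3 were called down, namely *Hoxa10* (30.4 against 133 FPKM in WT), *Hoxa11* (17.0 against 86.6) and *Msx1* (7.31 against 53.5). The summed level of all 8 was 153 to 224 FPKM in HSD17B1TG and 232 to 523 in WT. The annotation is that of the mouse, so the human transgene is not counted, and the mouse gene *Hsd17b1* averaged 0.992 ± 0.291 FPKM in HSD17B1TG uteri against 0.918 ± 0.375 in WT uteri.

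The upstream sequences of 3 members on which the results turn are shown here. These are *Areg*, which was abundant in a single mouse, *Erbb2*, the receptor whose transcript rose, and *Egfr*, the receptor whose mean was lower in HSD17B1TG. Each run holds the 250 bases before the RefSeq start on the plus strand of GRCm38.p6, 5′ to 3′, and lies upstream of the gene, except that the last bases of the *Erbb2* run fall inside the gene as the table bounds it. The windows are chr5:91139349-91139598 for *Areg*, chr11:98412234-98412483 for *Erbb2* and chr11:16751953-16752202 for *Egfr*. Capitals mark a match to any of the 7 motifs named in the next paragraph.
Areg: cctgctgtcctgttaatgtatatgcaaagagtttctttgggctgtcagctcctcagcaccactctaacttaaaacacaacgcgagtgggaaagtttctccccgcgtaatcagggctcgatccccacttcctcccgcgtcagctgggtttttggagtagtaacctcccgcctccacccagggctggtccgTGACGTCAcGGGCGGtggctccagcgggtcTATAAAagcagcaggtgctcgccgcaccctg
Erbb2: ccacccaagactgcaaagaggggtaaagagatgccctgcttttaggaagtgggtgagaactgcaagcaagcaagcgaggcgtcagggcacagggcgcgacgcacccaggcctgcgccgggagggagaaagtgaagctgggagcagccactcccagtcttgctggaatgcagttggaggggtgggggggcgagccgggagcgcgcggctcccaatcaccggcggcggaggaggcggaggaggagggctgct
Egfr: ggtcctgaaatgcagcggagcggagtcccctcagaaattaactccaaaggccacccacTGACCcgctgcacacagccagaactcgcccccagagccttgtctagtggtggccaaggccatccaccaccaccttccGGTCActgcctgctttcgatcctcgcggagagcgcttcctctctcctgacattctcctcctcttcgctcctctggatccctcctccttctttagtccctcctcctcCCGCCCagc

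The motifs searched, on both strands of windows of 300 bases that run to 50 bases past the start, were the full estrogen response element GGTCANNNTGACC, a single arm of it GGTCA, the cyclic AMP response element TGACGTCA, the AP-1 site TGANTCA, the progesterone response arm TGTTCT, the GC box GGGCGG and the TATA box TATAAA. The arm lies inside the full element, so every full match is also a match of the arm. Of 32851 RefSeq windows, 0.07% held the full element, 40.5% the single estrogen arm, 1.79% the cyclic AMP element, 7.81% the AP-1 site, 19.0% the progesterone arm, 35.7% the GC box and 13.6% the TATA box. The *Areg* window held the cyclic AMP element at position -61, a GC box at -52 and a TATA box at -31, counted from the start, and the estrogen arm and another GC box after the start, at 25 and 38. The *Egfr* window held the estrogen arm at -192 and -115 and a GC box at -9. None of the 7 sets of letters was in the *Erbb2* window, whose GC content was 66.0% against a median of 52.7% over all windows. Windows of 7 of the 10 members were analysed, and *Ereg*, *Erbb3* and *Hbegf* were left out. A match is a description of the letters and not evidence of a bound factor.

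Among the receptors, *Erbb2* transcript rose 2.13-fold in HSD17B1TG uteri, and it was the single member of 7 tested that passed the thresholds of an adjusted p under 0.05, a fold over 2 and a mean over 1 FPKM. *Erbb3* and the ligands *Hbegf* and *Btc* had means about as much higher, and *Egfr* had a lower mean, but these did not pass. Over all 16993 genes, 2.16% were called up and 2.08% down, together 4.24%. Of the 7 members tested, 6 were higher and 1 lower, with a median log2 fold change of 1.00, whereas 50.2% of all genes tested were higher and their median was 0.00. By the adjusted p alone, *Erbb2* was again the 1 member that passed in edgeR, against 6.16% of all genes. An unadjusted p under 0.05 in edgeR was found for 5 members, against 26.1% of all genes, namely 4 with a higher mean (14.7% of all genes) and 1 with a lower mean (11.4%). No member had groups without overlap, against 6.69% of all genes.

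**Figure D1:**
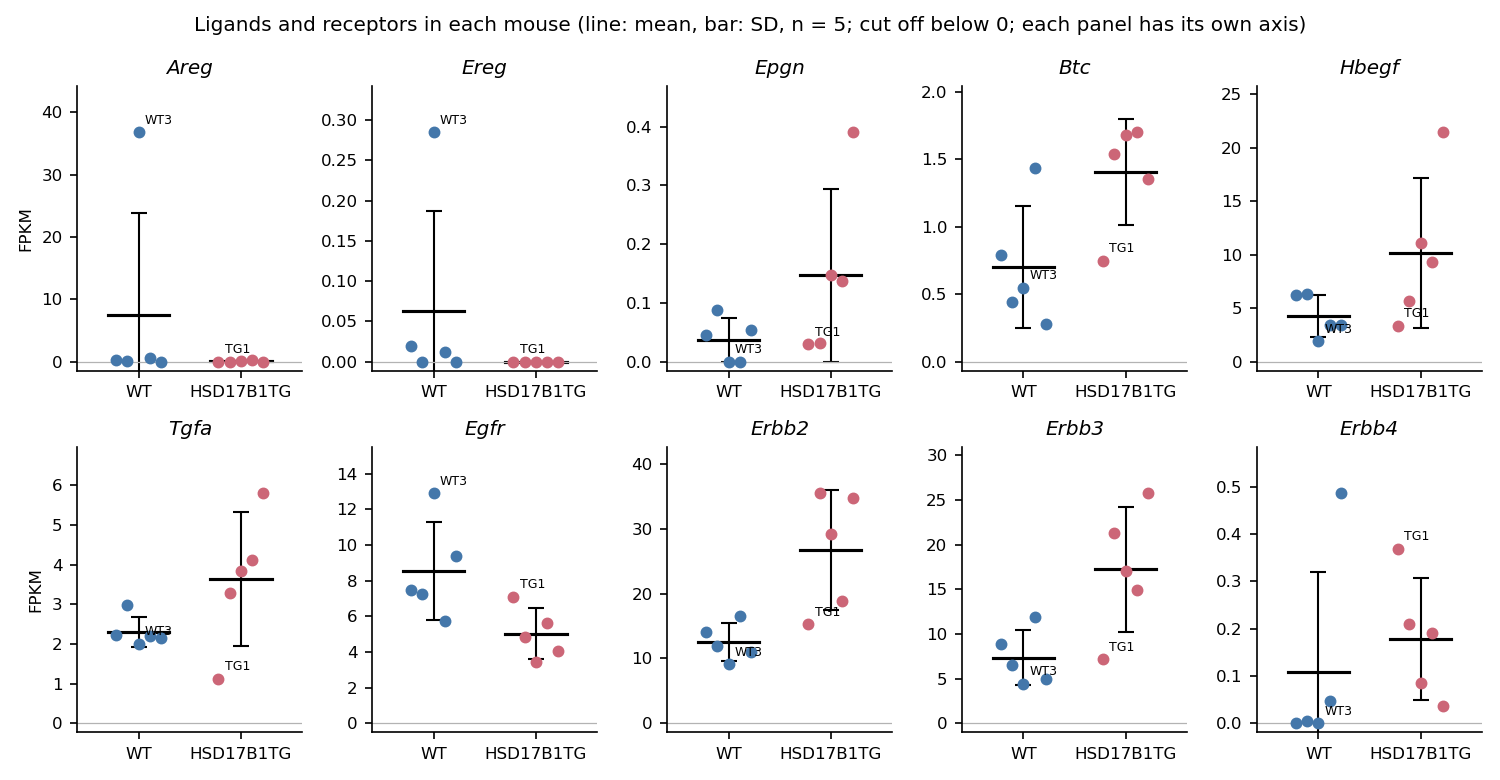
FPKM of the 10 members in each mouse, with WT in blue and HSD17B1TG in red, the line at the mean and the bar at ± 1 SD (n = 5, cut off below 0), on an axis of its own for each gene. *Erbb2*, *Erbb3* and *Tgfa* were above all WT mice in 4 HSD17B1TG mice each, *Egfr* was below all WT mice in 4, and *Areg* reached 36.8 FPKM in WT3 alone.

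*Erbb2*, on the plus strand at chr11:98412470-98437716, encodes the receptor that amplifies signals of its partners. It stood at 15.3, 35.4, 29.3, 18.9 and 34.7 FPKM in TG1 to TG5. The WT mice had 14.1, 11.9, 9.08, 16.6 and 10.97 FPKM in WT1 to WT5. TG2 to TG5 were above all WT mice, while TG1 lay below WT4, so the groups overlapped by this pair only. Means were 26.7 ± 9.21 FPKM in HSD17B1TG and 12.5 ± 2.91 in WT. The log2 fold change was 1.09 with a standard error of 0.26 (edgeR, adjusted p = 0.0388), and an exact permutation test (two-sided, on log2(FPKM + 1)) gave p = 0.0159 (n = 5 and 5). The smallest p this test allows is 0.00794. The call rests on small margins. It was kept when TG1 or WT4 was left out and lost when any of TG2, TG3, TG4, TG5, WT1, WT2, WT3 or WT5 was left out, with log2 fold changes of 0.96 to 1.24 and edgeR adjusted p of 0.0165 to 0.0974. Of the annotated genes on the other strand, *Mien1* overlaps *Erbb2* by 9 bases and *Gm25048* by 91.

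*Erbb3*, on the minus strand at chr10:128567523-128589652, encodes the neuregulin receptor that signals chiefly to PI3 kinase. It was measured at 7.21, 21.4, 17.1, 14.9 and 25.7 FPKM in TG1 to TG5 and at 8.88, 6.55, 4.44, 11.9 and 4.95 in WT1 to WT5. As for *Erbb2*, TG2 to TG5 were above all WT mice, and TG1 lay within the WT range. Means were 17.3 ± 6.99 FPKM in HSD17B1TG and 7.35 ± 3.09 in WT. The log2 fold change of 1.23 (standard error 0.36) did not pass (edgeR, adjusted p = 0.0618), and it passed without TG1 or without WT4, with a lowest adjusted p of 0.0213. DESeq2 called *Erbb3* up on all mice (adjusted p = 0.0142), and with it 4.48% of the genes it gave an adjusted p. The exact permutation test gave p = 0.0238.

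*Egfr*, on the plus strand at chr11:16752203-16918158, encodes the receptor of the 6 ligands followed here. It was found at 7.10, 4.82, 3.43, 5.62 and 4.06 FPKM in TG1 to TG5, and at 7.48, 7.25, 12.9, 5.75 and 9.40 in WT1 to WT5. TG2 to TG5 were below all WT mice, TG1 was within their range, and WT3 was the highest. The mean was 5.00 FPKM ± 1.43 in HSD17B1TG and 8.55 ± 2.75 in WT. With a log2 fold change of -0.78 (standard error 0.25), *Egfr* did not pass (edgeR, adjusted p = 0.0832), and the exact permutation test gave p = 0.0159. Without TG1 or WT4 the edgeR adjusted p was 0.0405 and 0.0394, with a fold still under 2. On all mice DESeq2 gave *Egfr* an adjusted p of 0.0464 and voom 0.0230, again with a fold under 2 and so no call. The antisense gene *Egfros* lies within *Egfr* over 15272 bases, and whether the counting used the strand is not given in the sources used here.

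*Erbb4*, on the minus strand at chr1:68032186-69108059, encodes a receptor for neuregulins and for several of the ligands. It was scarce, with 85, 45, 20, 38 and 7 counts in TG1 to TG5 and 0, 1, 0, 12 and 123 counts in WT1 to WT5. All HSD17B1TG mice were thus above the limit of 3 counts, while 3 WT mice were below it and WT5 held the highest value of all. In FPKM, WT5 was at 0.486 and TG1 at 0.369, the 2 highest. Both group means were thus under the 1 FPKM that a call requires, so *Erbb4* could not be called at any p. The log2 fold change was 0.72 with a standard error of 1.28 (edgeR, adjusted p = 0.767). Without WT5 it was 3.70 and still not called, with an exact permutation p of 0.0397 (0.437 with all mice), so its size rests on that mouse. It also moved with the method, to 3.75 with voom (adjusted p = 0.0545) and 0.10 with limma on log2(FPKM + 1). The annotation places 8 further genes on the same strand within *Erbb4*.

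The make-up of the receptors is given by shares and ratios as a description, without a test, and the ranges of the genotypes overlapped in each. *Egfr* took 6.28% to 23.7% of the summed FPKM of the 4 receptors in HSD17B1TG (median 7.80%) and 16.7% to 48.8% in WT (median 28.2%). The ratio of *Erbb2* to *Egfr* ran from 2.15 to 8.56 in HSD17B1TG (median 7.35) and from 0.705 to 2.89 in WT (median 1.64), and TG1, at 2.15, was the single HSD17B1TG mouse under the highest WT mouse. *Erbb3* over *Egfr* ran from 1.01 to 6.35 in HSD17B1TG (median 4.43) and from 0.345 to 2.08 in WT (median 0.904). *Erbb2* over *Erbb3*, by contrast, ran over close ranges, 1.27 to 2.12 in HSD17B1TG and 1.39 to 2.22 in WT. The summed receptor level was 29.9 to 64.6 FPKM in HSD17B1TG and 25.7 to 34.4 in WT.

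**Figure D2:**
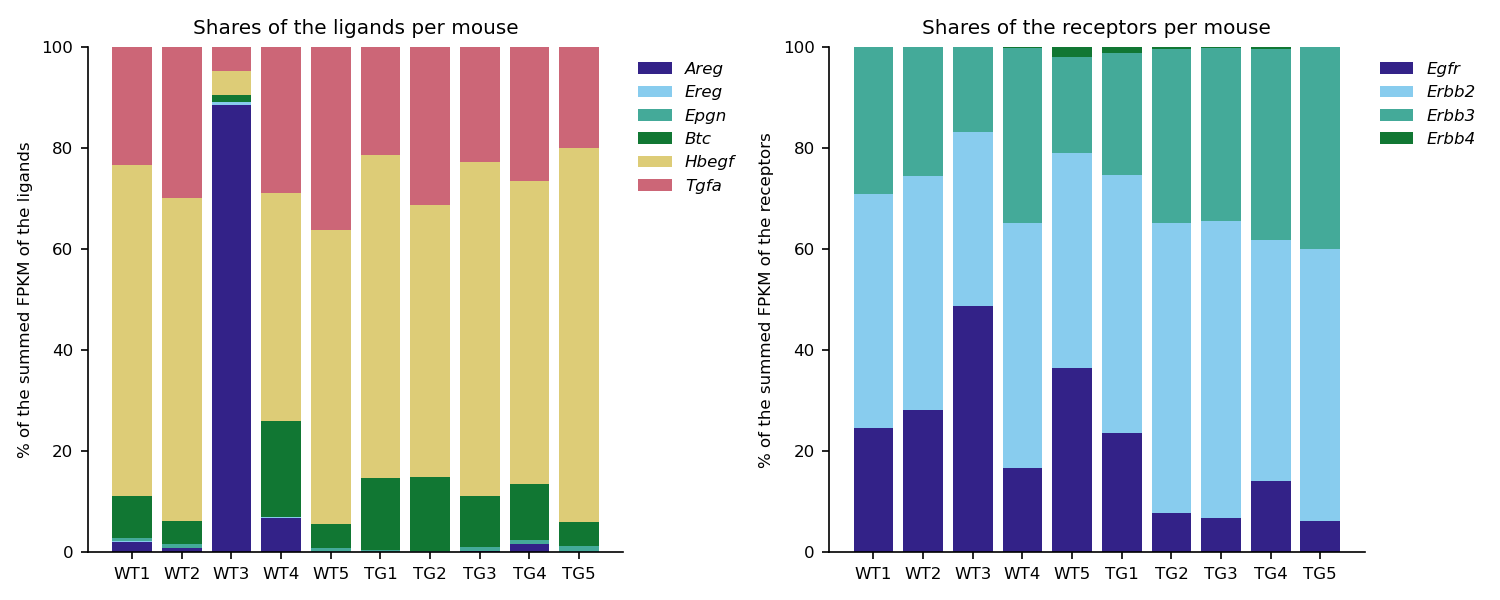
Share of each ligand (left) and each receptor (right) in the summed FPKM of its class, in percent, with 1 bar per mouse. *Areg* filled 88.5% of the ligand sum in WT3, *Hbegf* led in the other 9 mice, and the share of *Egfr* among the receptors was lower in TG5, TG3 and TG2 than in the other 7 mice.

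Whole uteri were sequenced, so fewer cells of a type and less RNA per cell cannot be told apart, and the levels of cell type markers were set beside those of the receptors. All 12 epithelial markers were higher in HSD17B1TG (median log2 fold change 1.24), with none called, and their summed level was 764 to 3583 FPKM in HSD17B1TG and 537 to 1837 in WT. Markers of endometrial glands, a part of the epithelium, had mostly lower values. Of 7 such genes 4 could be tested, 3 of them were lower and 1 higher with none called (median -1.60), and their sum was 4.19 to 15.1 FPKM in HSD17B1TG and 6.88 to 90.1 in WT. The gland markers *Cxcl15*, *Prss28*, *Prss29* and *Spink1* were at 0 in at least 1 mouse. Of 12 stromal markers, 11 were lower and 7 called down (median -1.69), and their sum was 566 to 2080 FPKM in HSD17B1TG and 1894 to 2460 in WT. *Hoxa10* and *Hoxa11*, named above among the uterine markers called down, belong to this list too and are counted again here. All 10 smooth muscle markers were higher (median 0.64), with none called and sums of 875 to 7392 against 412 to 5804 FPKM. Of the other lists, neutrophil markers were higher for all 3 of 8 genes that could be tested (none called, sums of 3.40 to 15.7 FPKM in HSD17B1TG and 0.864 to 3.95 in WT, with 6 of the 8 at 0 in at least 1 mouse). Endothelial markers were lower for 6 of 8 (none called, 29.8 to 119 against 51.4 to 119.8 FPKM), and leucocyte markers for 7 of 8, with the remaining gene called up (79.0 to 103 against 62.0 to 133 FPKM). Macrophage markers were higher for 5 of 8, with 1 called up (171 to 296 against 142 to 223 FPKM), and both adipocyte markers that could be tested were higher and not called (sums of 3.22 to 145 against 0.363 to 31.2 FPKM). Both tested oviduct markers were lower and not called (21.7 to 86.2 against 47.0 to 109 FPKM). No marker of the epithelial, stromal and smooth muscle lists was at 0 in any mouse.

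*Erbb2* and *Erbb3* were set beside the epithelial mean mouse by mouse. Among the WT mice both receptors and the epithelial mean had the same order, WT4 highest, then WT1, WT2, WT5 and WT3. TG1, the HSD17B1TG mouse with the lowest receptor values, also had the lowest epithelial mean of its group, 5.42 on the log2(FPKM + 1) scale. The other HSD17B1TG mice did not keep one order: by epithelial mean they ran TG5, TG3, TG2 and TG4, by *Erbb2* TG2, TG5, TG3 and TG4, and by *Erbb3* TG5, TG2, TG3 and TG4. TG2 and TG4 had epithelial means of 7.01 and 6.93, close to each other, with *Erbb2* at 35.4 and 18.9 FPKM. Taken as a difference from the epithelial mean on that scale, *Erbb3* was at -2.74 ± 0.27 in HSD17B1TG and -2.51 ± 0.26 in WT. *Erbb2* was at -2.11 ± 0.49 in HSD17B1TG and -1.77 ± 0.47 in WT. On this scale neither receptor had a higher mean in HSD17B1TG relative to these markers, and the ranges of the groups overlapped for both. In edgeR their log2 fold changes were 1.09 (*Erbb2*) and 1.23 (*Erbb3*), beside a median of 1.24 for epithelial markers. *Egfr* less the stromal mean was at -2.49 ± 0.24 in HSD17B1TG and -3.12 ± 0.23 in WT. This puts *Egfr* higher relative to these stromal markers in HSD17B1TG and is not a measure relative to the amount of stroma. The ranges met only at -2.83 (the lowest HSD17B1TG mouse) and -2.82 (the highest WT mouse). The part of cell composition in the receptor values was not tested.

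**Figure D3:**
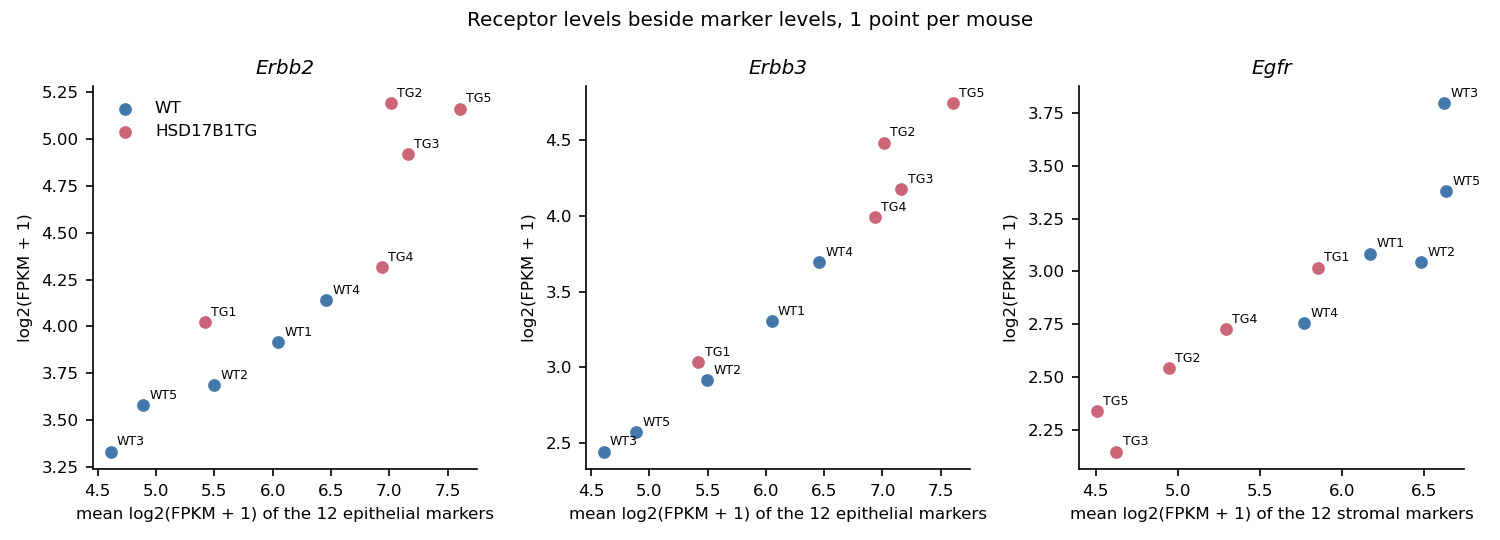
Level of *Erbb2*, *Erbb3* and *Egfr* (vertical axis, log2(FPKM + 1)) against the mean of 12 epithelial or 12 stromal markers on the same scale (horizontal axis), with 1 point per mouse. Both receptors kept the order of the epithelial markers among WT mice, TG2 and TG4 differed in *Erbb2* at like epithelial means, and TG1 lay among the WT mice.

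Among the ligands, *Hbegf* and *Tgfa* supplied most of the transcript in every mouse but WT3. *Hbegf*, on the minus strand at chr18:36504929-36515805, encodes heparin-binding EGF, which binds EGFR and ERBB4. It was at 3.37, 5.64, 11.1, 9.28 and 21.5 FPKM in TG1 to TG5 and at 6.22, 6.34, 1.93, 3.41 and 3.46 in WT1 to WT5. TG3, TG4 and TG5 were above all WT mice, and TG1 and TG2 were within the WT range. A log2 fold change of 1.25 (standard error 0.49) was not called (edgeR, adjusted p = 0.137), and the exact permutation test gave p = 0.111. Without TG5 the log2 fold change was 0.78, so its size rests on that mouse, and without TG1 the exact permutation p was 0.0397.

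*Tgfa*, on the plus strand at chr6:86195223-86275719, encodes transforming growth factor alpha, a ligand of EGFR. Its values were 1.12, 3.29, 3.85, 4.11 and 5.79 FPKM in TG1 to TG5 and 2.22, 2.97, 2.01, 2.19 and 2.15 in WT1 to WT5. The WT mice lay close together, with TG1 below all of them and the other 4 HSD17B1TG mice above all of them. The SD was accordingly 1.68 FPKM in HSD17B1TG and 0.379 in WT, around means of 3.63 and 2.31. Its log2 fold change of 0.65 (standard error 0.34) was not called (edgeR, adjusted p = 0.259; exact permutation test, p = 0.190). Without TG1 it was 0.88 with an edgeR adjusted p of 0.0268, under a fold of 2 and so not called, and the exact permutation p was 0.00794. That is the smallest p possible, because TG1 was the only HSD17B1TG mouse not above all WT mice. Without TG5 the log2 fold change was 0.42.

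*Btc*, on the minus strand at chr5:91357261-91402994, encodes betacellulin, which binds EGFR and ERBB4. It was at 0.748, 1.54, 1.68, 1.70 and 1.35 FPKM in TG1 to TG5 and at 0.792, 0.443, 0.549, 1.44 and 0.281 in WT1 to WT5. TG2, TG3 and TG4 were above all WT mice, and WT4 was higher than TG1 and TG5. The log2 fold change was 1.00 (standard error 0.43) and not called (edgeR, adjusted p = 0.166), although it was called without WT4 (adjusted p = 0.0321). The exact permutation test gave p = 0.0397, and p rose above 0.05 when any mouse other than TG1 or WT4 was left out (up to 0.0794).

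Relative to the epithelial mean on the log2(FPKM + 1) scale, the means of these 3 ligands were not higher in HSD17B1TG. The difference from that mean was -3.56 ± 0.44 in HSD17B1TG and -3.19 ± 0.67 in WT for *Hbegf*, -4.71 ± 0.25 and -3.78 ± 0.76 for *Tgfa*, and -5.58 ± 0.63 and -4.77 ± 0.52 for *Btc*. Adding 1 FPKM weighs more on low genes such as *Btc* than on the markers, so this comparison depends on the scale. In edgeR the log2 fold changes were 1.25 for *Hbegf*, 0.65 for *Tgfa* and 1.00 for *Btc*, beside a median of 1.24 for epithelial markers. The part of cell composition in the ligand values was not tested.

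By the exact permutation test, 4 members (*Btc*, *Egfr*, *Erbb2* and *Erbb3*) had an unadjusted p under 0.05, against 24.1% of all genes tested. After Benjamini-Hochberg adjustment over all genes tested, the exact permutation test left 0 genes under 0.05, from 4097 at an unadjusted p under 0.05, whereas edgeR left 1046. The adjusted value of *Erbb2* and of *Egfr* in the permutation test was 0.133.

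The ligand genes *Epgn*, *Ereg*, *Areg* and *Btc* lie next to each other on chromosome 5, within 375.5 kb, and are the only 4 protein-coding genes of that stretch in GENCODE. The first 3 are read from the plus strand and *Btc* from the minus strand. *Areg* and *Ereg* were highest in the same mouse, WT3, whereas *Epgn* was highest in TG5 and *Btc* in TG4. *Btc* was above its limit of detection in all 10 mice, while *Areg*, *Ereg* and *Epgn* had too few reads in most mice to enter the test.

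*Areg*, at chr5:91139599-91148432, encodes amphiregulin, a ligand of EGFR. It had 0, 0, 1, 5 and 0 counts in TG1 to TG5 and 6, 2, 722, 13 and 0 counts in WT1 to WT5. In FPKM, WT3 was at 36.8 and the next mouse, WT4, at 0.518, so that WT3 held 96.4% of all *Areg* counts. In CPM, WT3 was 78.1 times above the next mouse. The WT mean of 7.53 FPKM ± 16.4 therefore describes 1 mouse, and the exact permutation test gave p = 0.159. With a mouse left out, the exact permutation p was 0.0317 without WT5 and ran up to 0.492 without others. A count of 3 corresponded to at most 0.159 FPKM of *Areg*, and TG1, TG2, TG3, TG5, WT2 and WT5 were below 3 counts, the limit of detection. In WT3 *Areg* was the most abundant member. The same mouse had the highest *Egfr* and the lowest *Erbb2*, *Erbb3* and *Hbegf* of all 10 mice.

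*Ereg*, at chr5:91074622-91093646, encodes epiregulin, which binds EGFR and ERBB4. It had 19 counts in WT3, 2 in WT1, 1 in WT4 and 0 in the other 7 mice, so that WT3 alone (0.285 FPKM) was above 3 counts, the same mouse as for *Areg*. The exact permutation test gave p = 0.167. With a mouse left out, the exact permutation p was 0.0476 without WT2 or WT5 and ran up to 0.563 without others. The antisense gene *Gm19610* overlaps *Ereg* by 152 bases.

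*Epgn*, at chr5:91027464-91035215, encodes epigen, a ligand of EGFR with low affinity. It had 1, 1, 5, 4 and 11 counts in TG1 to TG5 and 2, 3, 0, 0 and 2 counts in WT1 to WT5. TG3, TG4 and TG5 were the only mice above 3 counts. The highest level, 0.391 FPKM in TG5, was far under those of *Btc*, *Tgfa* and *Hbegf* in that mouse, and the exact permutation test gave p = 0.0952. The exact permutation p was 0.0476 without TG1 or without TG2. Without TG5 the difference of means on log2(FPKM + 1) fell from 0.137 to 0.066 (exact permutation p = 0.190).

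**Figure D4:**
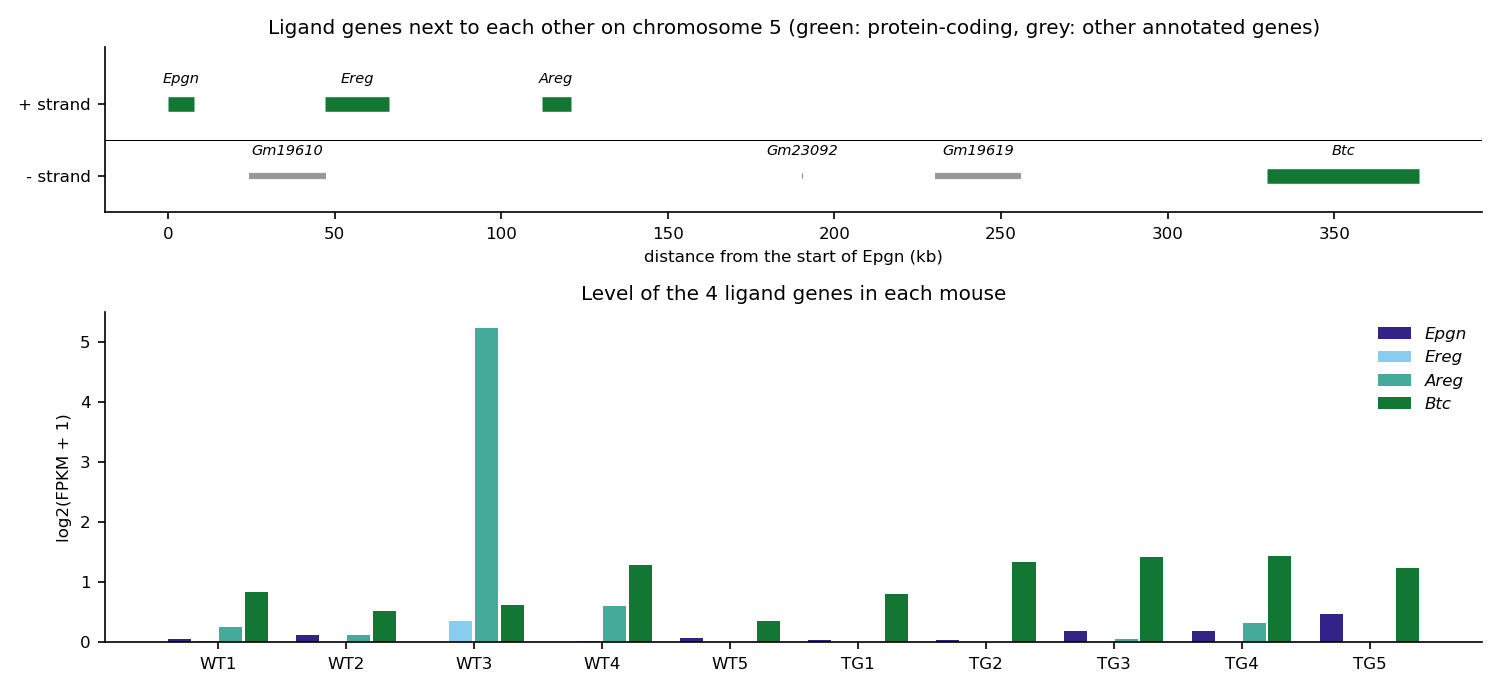
Map of the stretch of chromosome 5 with *Epgn*, *Ereg*, *Areg* and *Btc* by distance from the start of *Epgn* in kb (top), and log2(FPKM + 1) of the 4 genes in each mouse (bottom). *Areg* stands out in WT3 alone, where *Ereg* also has its highest level, while *Btc* is present in every mouse.

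Ordered by mean FPKM, the members in HSD17B1TG ran *Erbb2*, *Erbb3*, *Hbegf*, *Egfr*, *Tgfa*, *Btc*, *Erbb4*, *Epgn*, *Areg* and *Ereg*. *Erbb2* was above *Erbb3*, *Erbb3* above *Hbegf*, *Tgfa* above *Btc* and *Btc* above *Erbb4* in 5 of 5 mice. *Hbegf* was above *Egfr* in 4 of 5 and *Egfr* above *Tgfa* in 3 of 5, so the place of *Egfr* in this order was not settled. In WT the order was *Erbb2*, *Egfr*, *Areg*, *Erbb3*, *Hbegf*, *Tgfa*, *Btc*, *Erbb4*, *Ereg* and *Epgn*, where *Areg* owes its place to WT3 and was above *Erbb3* in 1 of 5 mice. *Erbb2* was above *Egfr* in 4 of 5 WT mice, WT3 being the exception. The ranges of neighbours overlapped except for *Btc* and *Erbb4* in HSD17B1TG and *Tgfa* and *Btc* in WT.

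For the 3 members with the largest SD of log2 CPM among the 7 tested, which leaves out *Areg*, the genes most like them were sought by the root mean squared difference of centred log2 CPM over the 10 mice. For *Hbegf* these were *Spire2* (0.28), *Abca4* (0.31) and *Il17re* (0.38), where the median gene differed by 1.06. For *Btc* they were *Inpp5d* (0.23), *Skap2* (0.29) and *Jup* (0.29), against a median of 0.96. For *Erbb4* the nearest were *4933406B17Rik* (1.03), *Sema3d* (1.09) and *6430584L05Rik* (1.15), against a median of 2.14.

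The wider pathway was followed through 85 tested genes, sorted by role. Of these 3 were called up and 2 down, that is 5.88% (4.24% over all genes), and the median log2 fold change was 0.15. Groups without overlap were found for 3 of them, or 3.53%, under the 6.69% of all genes. The called genes included a pair of negative regulators. *Lrig1*, which marks ERBB receptors for degradation, rose from 18.6 FPKM ± 11.6 in WT to 74.1 ± 37.1 in HSD17B1TG (log2 fold change 1.995, standard error 0.50, edgeR adjusted p = 0.0445). *Dusp5*, a phosphatase that acts on ERK, rose from 1.92 FPKM ± 0.548 to 5.69 ± 2.25 (log2 fold change 1.57, standard error 0.32, adjusted p = 0.0263), and its groups did not overlap. The other 20 of 22 feedback genes were not called.

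*Eps8*, a substrate of EGFR that links it to actin, was the 1 gene of 32 adaptors and effectors called up, from 3.78 FPKM ± 2.24 to 12.5 ± 5.03 (log2 fold change 1.73, standard error 0.43, edgeR adjusted p = 0.0427). *Src*, a kinase that acts with EGFR, had an adjusted p of 0.0364 in edgeR but a log2 fold change of 0.83, under the threshold. *Cblc*, a ubiquitin ligase, was at 2.22 and did not pass (adjusted p = 0.0572). Among 10 genes of ligand release, *Adam12*, a metalloprotease known to cut the HB-EGF precursor, fell from 16.8 FPKM ± 7.63 to 4.75 ± 1.99 (log2 fold change -1.83, standard error 0.35, edgeR adjusted p = 0.0234) without overlap of the groups. *Cd9*, a tetraspanin that binds the HB-EGF precursor, was at 0.76 (adjusted p = 0.0550) and *Adam9*, another metalloprotease, at 0.88 (adjusted p = 0.0551), both not called.

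Of 17 immediate targets, *Myc*, which encodes a transcription factor of growth, fell from 32.9 FPKM ± 15.9 to 13.9 ± 1.76 (log2 fold change -1.25, standard error 0.33, edgeR adjusted p = 0.0498). WT4, at 11.7 FPKM, was within the HSD17B1TG range and the other 4 WT mice were above it. *Ier3* (log2 fold change 1.91, adjusted p = 0.117) and *Il1rn* (2.38, adjusted p = 0.164) were not called in edgeR. Of the 4 other ligand genes tested none was called. *Il1rn* and the ligand gene *Egf* had means under 1 FPKM in both groups and so could not be called. The neuregulin gene *Nrg1*, whose product binds ERBB3 and ERBB4, was at 1.52 FPKM ± 0.627 in HSD17B1TG and 4.96 ± 3.11 in WT (log2 fold change -1.71, edgeR adjusted p = 0.0586). *Nrg4* (-1.13) and *Nrg2* (-1.14) were also lower and not called, with adjusted p of 0.146 and 0.260. *Lrig3*, a relative of *Lrig1*, had a log2 fold change of -1.17 (edgeR adjusted p = 0.0856).

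These calls lay close to the threshold. Of the 10 fits that each left out a mouse, *Adam12* was called in 5 (without TG1, TG3, WT1, WT4 or WT5), *Dusp5* in 3 (without TG1, TG3 or WT4), *Eps8* and *Lrig1* in 2 (without TG1 or WT4) and *Myc* in 1 (without WT4). The highest adjusted p in edgeR over these fits was 0.0631 for *Adam12*, 0.0707 for *Dusp5*, 0.105 for *Eps8*, 0.111 for *Lrig1* and 0.114 for *Myc*, and the direction was kept in all 10. The log2 fold changes over these fits were -2.08 to -1.56 for *Adam12*, 1.40 to 1.69 for *Dusp5*, 1.54 to 2.10 for *Eps8*, 1.77 to 2.35 for *Lrig1* and -1.46 to -1.02 for *Myc*.

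These 5 genes were set beside cell type markers, *Adam12* beside stromal and the others beside epithelial markers. *Lrig1* was at 34.8, 26.4, 14.5, 9.90 and 7.43 FPKM in WT4, WT1, WT2, WT5 and WT3, which is the order of their epithelial means, and TG1 was the lowest HSD17B1TG mouse in both. Through the same WT mice *Eps8* was at 7.27, 4.77, 2.27, 2.68 and 1.92 FPKM and *Dusp5* at 2.56, 1.99, 1.51, 2.29 and 1.23. Neither kept that order, and TG1 was the lowest HSD17B1TG mouse for both. *Myc* rose through these WT mice from 11.7 to 53.7 FPKM, the reverse of the epithelial order. Within HSD17B1TG it was highest in TG5, as was the epithelial mean. *Adam12* was lower in HSD17B1TG, as were 11 of the 12 stromal markers, of which 7 were called down. Among WT mice, however, *Adam12* was lowest in WT5 (10.1 FPKM) and highest in WT1 (29.4 FPKM), whose stromal means were 6.63 and 6.17 on the log2(FPKM + 1) scale. The part of cell composition in the pathway values was not tested.

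**Figure D5:**
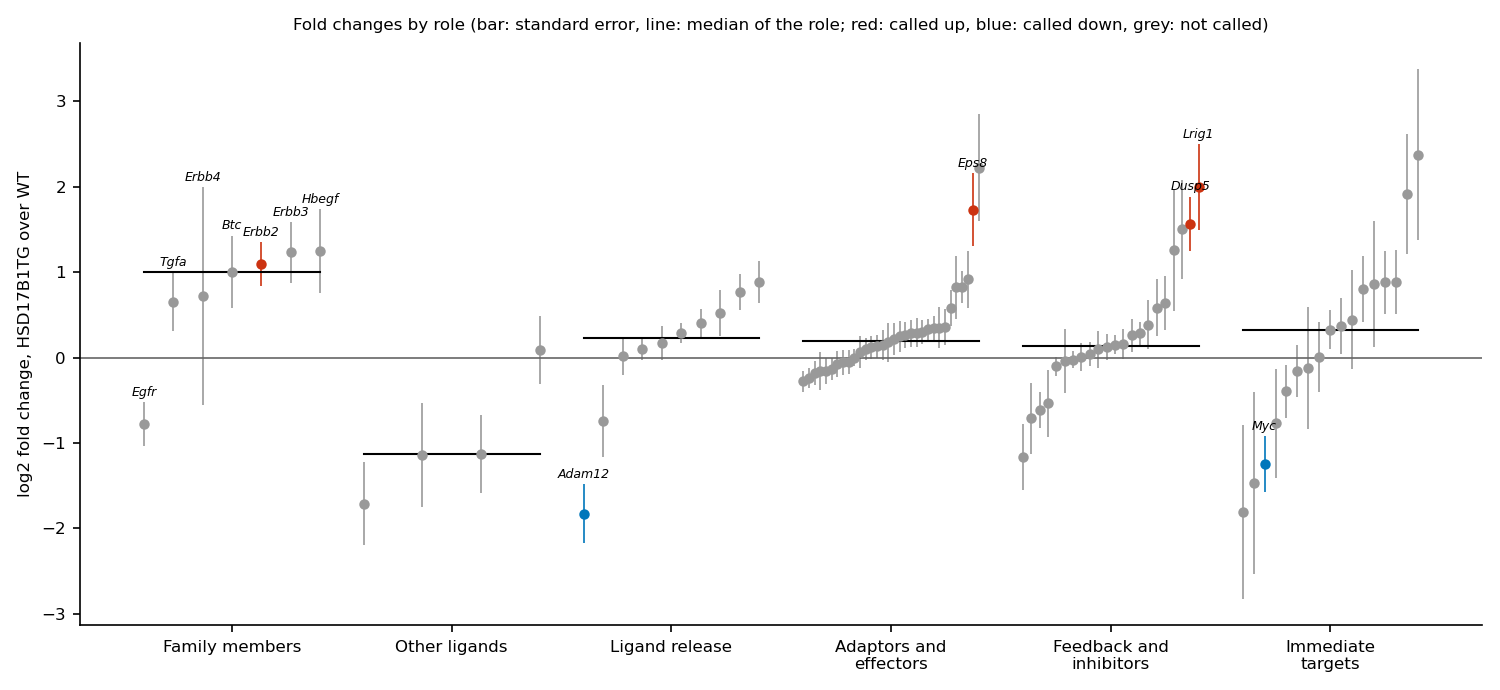
Log2 fold change (HSD17B1TG over WT, edgeR) with its standard error for the 7 members tested and the 85 pathway genes by role, with the median of each role as a line. Called genes are red (up: *Erbb2*, *Eps8*, *Dusp5*, *Lrig1*) or blue (down: *Adam12*, *Myc*), and the median was 1.00 for the members and 0.15 for the pathway genes.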

How the data were processed

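RNA of whole uteri from 5 HSD17B1TG and 5 WT mice was sequenced in paired ends on an Illumina NovaSeq. Per the methods and the submitters' processing notes, reads were mapped with HISAT2 2.0.5 to the mouse genome (GRCm38, Ensembl annotation). The authors deposited raw counts per gene, which were not normalized. The deposited FPKM rest on the table's gene length and, as checked here, on a scale proportional to a DESeq2-type size factor. Which program counted the reads, and whether by strand, is not given in the sources used here. The deposited fold changes and p-values of the authors' DESeq2 comparison and the enrichment tables were not used.

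The edgeR package (4.0.16, R 4.3.3) was used to test the counts (filterByExpr with a minimum count of 10, TMM factors, quasi-likelihood test, Benjamini-Hochberg adjustment over 16993 genes). A gene was called at an adjusted p under 0.05, a change of over 2-fold and an average above 1 FPKM for at least 1 genotype. Single genes were also tested, two-sided, on log2(FPKM + 1), where 1 is the pseudocount, by an exact permutation test that takes all 252 ways to split the 10 mice. The p-values measure the spread between mice. No litter or batch was given, and no 2 libraries of the same genotype agreed within sampling noise. The code was tested on simulated data. Alternatives were DESeq2 1.42.0, limma 3.58.1, other scalings, no filter, other pseudocounts and each mouse left out.

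The members, the pathway lists, the marker lists and the tests were chosen with earlier results of these data known. All members are named. Of the pathway genes, each called gene and the 3 per role with the smallest p are named, and likeness is given as the 3 nearest genes. Samples were grouped by the strain in the labels and numbered in accession order. Coordinates are those of the table (GRCm38), and 28478 of its 29268 genes, among them 9 of 10 members, have the same coordinates in GENCODE M21, from which overlaps were taken. *Hbegf* differs there by its lower end. Upstream sequences are from RefSeq (GRCm38.p6).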

Additional observations from a re-analysis of the deposited data

Results flagged for a closer look

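Of 42 groups of 5 mice examined (each member and each marker list in each genotype), 6 held a mouse far from the others, where chance gives about 1 in 20 groups of normally distributed values. Levels near 0, as of *Areg*, *Ereg* and *Erbb4*, are not so distributed, and for them that rate does not hold. *Areg* was at 36.8 FPKM in WT3, with the nearest WT mouse at 0.518. *Ereg* was at 0.285 FPKM in the same WT3, with the nearest at 0.0197. *Areg* in TG4 was at 0.255 FPKM, with the nearest HSD17B1TG mouse at 0.0437, a difference of 5 counts against 1. *Tgfa* in WT2 was at 2.97 FPKM, with the nearest WT mouse at 2.22. *Erbb4* in WT5 was at 0.486 FPKM, with the nearest WT mouse at 0.0470. The leucocyte markers in TG3 had the lowest mean of their group, 2.84 on the log2(FPKM + 1) scale, with the nearest mouse at 3.11.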

How the results depend on the processing

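The fold changes of the 7 members tested kept their sign under the 8 other settings and in the 10 fits lacking a mouse (126 values). Among the 8, the adjusted p alone alters only the rule for a call, so its fold changes are those of the main analysis and could not change sign. The number of members called up, 1 in the main analysis, was 2 with DESeq2 (*Erbb2*, *Erbb3*), 3 with voom (with *Btc*), 0 with library totals as the scale and 0 with limma on log2(FPKM + 1). In the last 2, *Erbb2* had log2 fold changes of 0.91 and 0.99, under the fold threshold, with adjusted p of 0.0470 (edgeR) and 0.0426 (limma). Library totals shifted the median gene by -0.17, and relative to it *Erbb2* was at 1.08. Log2 fold changes that moved by over 1.5 times without a change of call were those of *Hbegf* (0.82 with voom) and of *Btc* (0.52) and *Tgfa* (0.40) with limma on log2(FPKM + 1), beside *Erbb4* (3.75 and 0.10). With limma on log2(FPKM + 0.1), *Btc* was at 1.03 and *Tgfa* at 0.48. Leaving out 1 mouse gave 0 to 3 members up and 0 to 0 down, and 3 to 7 members with an exact permutation p under 0.05 in place of 4 (7 without TG1). For the pathway genes, 3 up became 5 with DESeq2 and 10 with voom, and 0 to 9 without 1 mouse. The 2 down became 4 with DESeq2, 1 with RLE factors, 1 with limma on log2(FPKM + 1), 1 with limma on log2(FPKM + 0.1) and 0 to 5 without 1 mouse. Over all genes, 367 up became 923 with DESeq2, 1083 with voom, 568 by the adjusted p alone and 38 to 888 without 1 mouse. The 354 down became 674 with DESeq2, 665 with voom, 228 with limma on log2(FPKM + 1) and 27 to 666 without 1 mouse. Of the calls over all genes, 50.9% were up in the main analysis, 36.7% with library totals, 62.0% with voom and 64.6% with limma on log2(FPKM + 1). The counts over all genes were added after seeing the data. The cause of these differences was not tested, except that fits without a mouse have fewer samples. No paired analysis was possible because the labels name no litter, cage or pair. The sample titles end in numbers whose meaning is not explained, and none was taken to link mice. *Areg*, *Ereg* and *Epgn* were tested in edgeR only without the filter, with adjusted p of 0.0893, 0.195 and 0.347.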

Other observations

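The level of *Areg* in WT3 was set beside other genes high in a single mouse, a comparison chosen after its values were seen. Among 17247 genes with at least 100 counts in all, 19 were more than 10-fold above every other mouse in WT3, 10 in WT5, 3 in WT2, 1 in TG4 and 0 in the remaining 6 mice. *Areg* ranked 3rd of those in WT3 with a ratio of 78.1, after *Pla2g10* (98.2), which encodes a secreted phospholipase, and *Rims3* (86.0). *Fam83a* (66.7) and *Pla2g10os* (51.3) followed. *Pla2g10os* is the antisense partner of *Pla2g10*, and without a known strand setting the reads of the pair cannot be told apart.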
